A study of Homo sapiens with 6 samples.

Results

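Among 11221 genes at 3 CPM or more in every control library of a colorectal cancer line, 61 stood lower in all 3 libraries made with POU5F1B than in all 3 made with GFP. These genes were chosen by their CPM (the count of a gene as a share of its library's total, scaled alike in all libraries). A gene was taken when the lowest GFP library was at least 1.5 times the highest POU5F1B library and held 3 CPM or more. Of the 63677 rows in the tables, 71 genes met this condition. The list leaves out 11 genes that are treated apart from these, of which 10 met it (KCNQ5, ITGA1, FAT1, PAM, SOX4, PHLDB2, CDC42BPA, DCBLD2, KDM7A and CAV1) and CAV2 did not. The share of genes meeting the condition was 0.633% of the 11221, and in the opposite direction 73 of 11385 genes did so, or 0.641%. The separation between the groups is therefore what put a gene on the list, and levels and fold changes are given as a description without a test.

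The cells were SW480, an established line from a human colorectal adenocarcinoma, transduced with a doxycycline-inducible vector for GFP (3 libraries) or for POU5F1B (3 libraries). All 6 cultures received 1 µg/mL doxycycline for 72 h in Leibovitz medium with serum, so the control also carried a vector, the drug and a foreign protein. Poly(A) RNA was sequenced from each, and the purpose of the comparison was to see which transcripts differ when the retrogene is expressed. POU5F1B is a retrogene copy of POU5F1, the gene of the pluripotency factor OCT4. Nothing in the labels says whether the libraries of a group came from separate transductions or cultures, or whether a line was 1 clone, so spreads between libraries can be technical.

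The libraries held 10767947 to 12787637 counts. POU5F1B itself had 6, 5 and 1 counts in GFP replicates 1, 2 and 3 and 15027, 11393 and 1458 counts in POU5F1B replicates 1, 2 and 3, so POU5F1B replicate 3 held the least of the induced transcript. All 10 epithelial markers of a colon line were read in every library, with a summed level of 6699 to 9175 CPM in GFP and 8236 to 9452 CPM in POU5F1B libraries. Of these 10, 9 had a log2 fold change above 0, with a median of 0.42 over the 10. CDH1, the cadherin of epithelia, had 33.7, 31.0 and 67.5 CPM in GFP replicates 1, 2 and 3 and 165, 159 and 101 CPM in POU5F1B replicates 1, 2 and 3. The part of this shift in the members' values was not tested. Of 10 fibroblast markers, 5 were under 1 CPM in every library and COL3A1 and FAP had no count. Leukocyte markers summed to 2.19 to 3.79 CPM in GFP and 2.97 to 5.64 CPM in POU5F1B libraries, and endothelial markers to 4.36 to 16.0 and 5.04 to 8.31 CPM. In such bulk samples, fewer cells of a kind and less RNA per cell cannot be told apart.

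Genes of many kinds stood in this list. By function the 61 were grouped, after they were known, into 10 transcription factors and other nuclear regulators, 11 proteins of signal transduction and membrane traffic, 10 proteins of actin and microtubules, 6 of adhesion and cell polarity, 6 secreted signals and matrix proteins, 3 RNA-binding or RNA-turnover proteins, 7 long noncoding RNAs and 8 other or less well known genes. By annotation 52 encoded proteins, 7 were long noncoding RNAs, 1 (ATP6AP1L) was a transcribed pseudogene, and ENSG00000155130 had no entry in the annotation used. Epithelial cells are held in place by junction proteins that connect to actin, and polarity proteins set the direction of that scaffold. The angiomotins, to which AMOTL1 belongs, sit at junctions, bind actin and hold the coactivator YAP of the Hippo pathway in the cytoplasm. Secreted ligands such as TGFB2 and the Wnt antagonist DKK1 carry signals between neighbouring cells, and transcription factors such as MITF, NR2F1 and FOXA2 set cell identity.

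Before the values, the upstream sequences of 4 members are shown. AMOTL1 had the widest gap between the groups, TGFB2 and DKK1 encode the best known secreted signals of the list, and ATP6V1C2 was the member whose start region held the octamer that POU-family factors bind. Each is the 250 bases before the transcription start, from RefSeq on GRCh38.p14, printed 5′ to 3′ in lower case with matched motifs in capitals.
AMOTL1 (chr11:94768106-94768355, plus strand): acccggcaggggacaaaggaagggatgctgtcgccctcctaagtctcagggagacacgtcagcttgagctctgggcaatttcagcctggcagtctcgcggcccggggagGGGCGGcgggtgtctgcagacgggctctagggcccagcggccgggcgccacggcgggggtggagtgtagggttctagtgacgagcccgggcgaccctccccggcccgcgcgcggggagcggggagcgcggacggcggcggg
TGFB2 (chr1:218345086-218345335, plus strand): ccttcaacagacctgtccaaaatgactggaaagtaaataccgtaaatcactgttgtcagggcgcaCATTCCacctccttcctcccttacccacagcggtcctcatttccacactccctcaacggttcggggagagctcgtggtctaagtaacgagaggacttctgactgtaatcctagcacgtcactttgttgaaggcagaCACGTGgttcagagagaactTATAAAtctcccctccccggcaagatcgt
DKK1 (chr10:52314031-52314280, plus strand): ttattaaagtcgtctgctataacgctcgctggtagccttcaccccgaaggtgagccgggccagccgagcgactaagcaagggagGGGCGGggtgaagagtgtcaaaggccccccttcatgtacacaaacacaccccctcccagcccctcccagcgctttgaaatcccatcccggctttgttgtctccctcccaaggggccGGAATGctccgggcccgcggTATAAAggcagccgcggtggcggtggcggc
ATP6V1C2 (chr2:10721380-10721629, plus strand): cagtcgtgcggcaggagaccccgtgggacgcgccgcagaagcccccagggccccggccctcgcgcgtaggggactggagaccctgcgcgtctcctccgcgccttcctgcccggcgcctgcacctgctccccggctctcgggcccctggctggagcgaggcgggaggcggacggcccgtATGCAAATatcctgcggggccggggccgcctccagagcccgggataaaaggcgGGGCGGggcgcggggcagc
The capitals mark GGGCGG (the GC box) in AMOTL1, DKK1 and ATP6V1C2. In DKK1 they also mark GGAATG, the site of TEAD factors, and the TATA box (TATAAA). ATP6V1C2 holds the octamer, ATGCAAAT. In TGFB2 the first run in capitals is the TEAD site read on the other strand, 185 bases before the start. The next is an E-box, CACGTG, and the last is the TATA box. The TATA box starts 29 bases before the TGFB2 start and 30 bases before the DKK1 start. A match is a string of letters and says nothing of binding in these cells.

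Motifs were counted on both strands in the window from 250 bases before to 50 bases after the start, with the first listed start of each gene. A window was found for 50 of the 61 members, for 8846 of the genes at 3 CPM or more in every GFP library, and for 27305 genes in all. GGGCGG stood in 27 of the 50 member windows (54.0%), against 72.9% of the 8846 and 44.6% of all windows. The median GC content of the windows was 60.7% in members, 66.0% in the 8846 and 58.3% in all, and the shares with the GC box took the same order. GGAATG stood in 8 member windows (16.0%, against 10.5% and 14.0%). TATAAA stood in 4 (8%, against 4.84% and 12%), which were TGFB2, DKK1, ESM1 and RASGEF1B. CACGTG stood in 2 (4%, against 10.5% and 7.43%), TGAGTCA, the AP-1 site, in 2 (4%, against 2.80% and 4.92%) and ATGCAAAT in 1 (2%, against 1.19% and 1.80%). No motif searched lies inside another, and the counts describe the windows only.

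**Figure D1:**
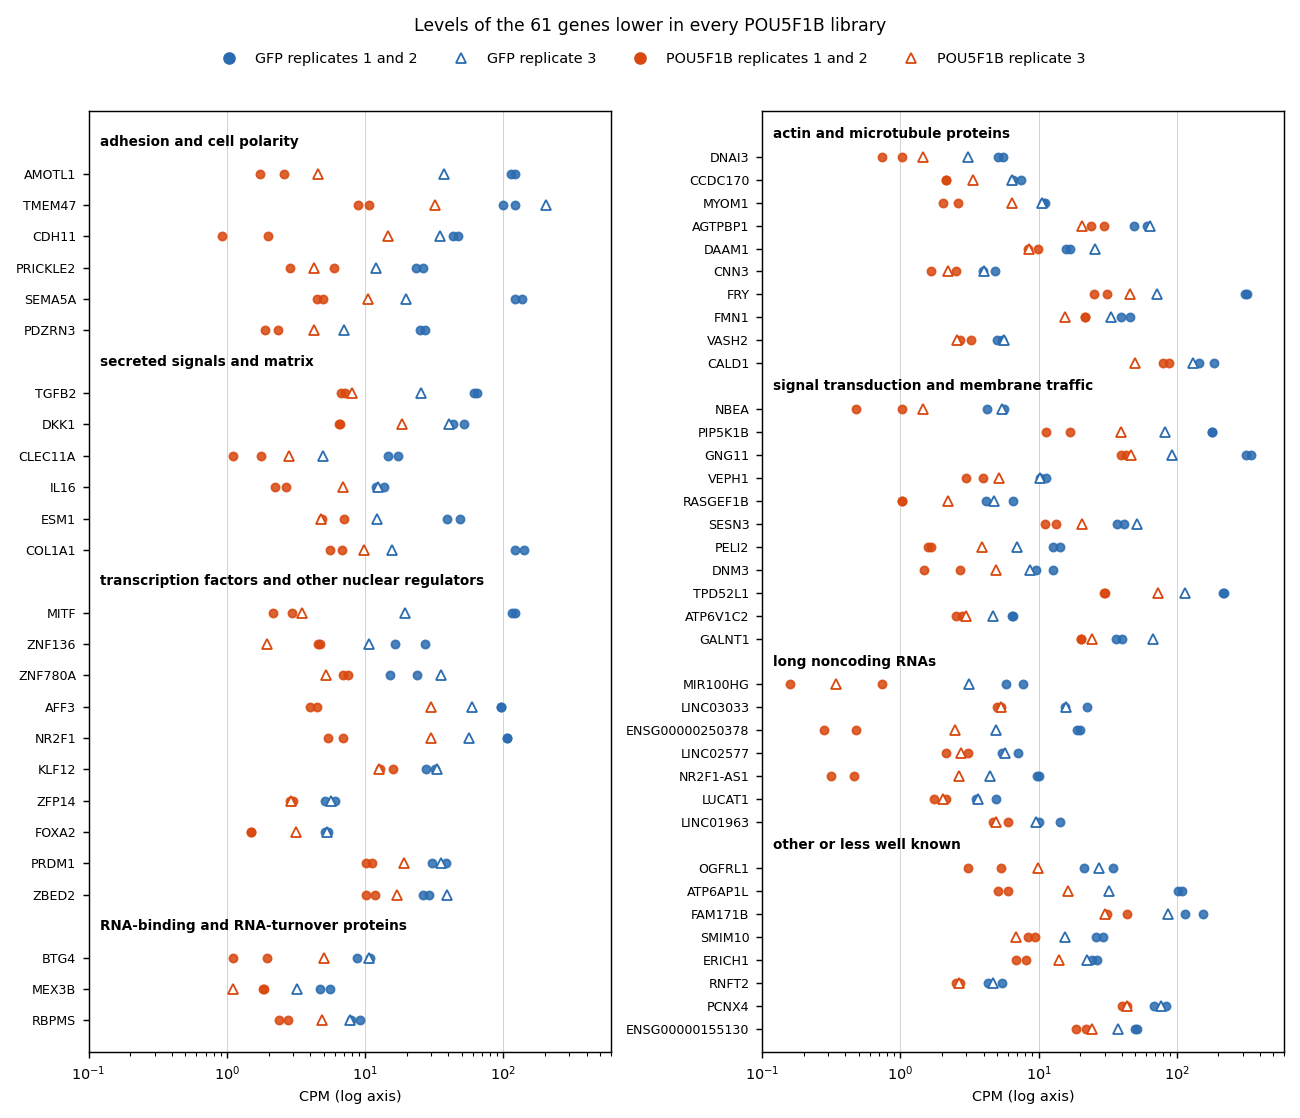
CPM of each of the 61 genes in each of the 6 libraries on a log axis, with GFP in blue, POU5F1B in orange, replicates 1 and 2 as filled circles and replicate 3 as open triangles, grouped by function. Every blue symbol of a gene lies to the right of every orange one, as the choice of genes requires, and the blue triangle often lies nearer to the orange symbols (AMOTL1 at 37.3 CPM, MITF at 19.3 CPM).

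The adhesion and polarity genes held the widest gap of the list. AMOTL1 (ENSG00000166025; chromosome 11, 94439597 to 94609913 on GRCh37) was read at 113, 121 and 37.3 CPM in GFP replicates 1, 2 and 3 and at 1.74, 2.60 and 4.53 CPM in POU5F1B replicates 1, 2 and 3. Its lowest GFP library was 8.25 times its highest POU5F1B library, with means of 90.3 ± 46.1 against 2.96 ± 1.43 CPM (SD, n = 3). The log2 fold change, from the fit to all genes, was -4.90 ± 0.75 (SE). GFP replicate 3 was 0.320 times the mean of the other GFP libraries, so the spread among the controls was wide while the groups stayed apart.

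TMEM47, a small membrane protein of the claudin and PMP22 family at junctions (chromosome X, 34645192 to 34675402), went the other way within the controls. It had 99.2, 121 and 202 CPM in GFP and 8.87, 10.6 and 31.8 CPM in POU5F1B replicates 1, 2 and 3, and both replicate 3 libraries were the highest of their group. CDH11, a cadherin of mesenchymal cells, had 46.9, 42.9 and 34.7 CPM in GFP against 1.98, 0.929 and 14.5 CPM in POU5F1B libraries. Here the controls lay close together, and the POU5F1B libraries did not. SEMA5A, a transmembrane semaphorin, had 136, 121 and 19.7 CPM against 4.51, 4.92 and 10.4 CPM. PRICKLE2, a planar polarity protein, had 26.4, 23.4 and 12.04 CPM against 5.94, 2.88 and 4.27 CPM. PDZRN3, a ubiquitin ligase with PDZ domains, had 27.0, 24.8 and 7.03 CPM against 1.90, 2.32 and 4.27 CPM. In SEMA5A and PDZRN3 replicate 3 of GFP came to within 1.89 and 1.65 times the highest POU5F1B library, while the other GFP libraries were far above it. Over the 6 genes, the ratio of the group means ran from 4.72 to 30.6 with a median of 7.69, against a median of 3.43 over all 61.

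Among secreted factors, TGFB2 (ENSG00000092969; chromosome 1, 218518678 to 218617961), a ligand of the TGF-beta receptors, had 64.5, 61.2 and 25.4 CPM in GFP and 7.204, 6.69 and 8.03 CPM in POU5F1B replicates 1, 2 and 3. The POU5F1B libraries agreed closely, at 7.31 ± 0.676 CPM, whereas the GFP mean was 50.4 ± 21.7 CPM (SD, n = 3), and the log2 fold change was -2.71 ± 0.43 (SE). DKK1 (ENSG00000107984; chromosome 10, 54074041 to 54077802), which blocks Wnt coreceptors, had 51.4, 42.9 and 40.4 CPM against 6.49, 6.59 and 18.6 CPM. In DKK1 the GFP libraries lay together and POU5F1B replicate 3 was the high one, the reverse of TGFB2. The log2 fold change of DKK1 was -2.30 ± 0.36 (SE).

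The matrix gene COL1A1, which encodes a chain of type I collagen, had 142, 121 and 15.7 CPM in GFP and 6.81, 5.57 and 9.73 CPM in POU5F1B libraries. Its GFP replicate 3 was thus much nearer to the POU5F1B libraries than to the other controls, and the ratio between the nearest libraries was 1.61 although that of the means was 12.6. COL1A1 is also one of the fibroblast markers, and without it the other 9 summed to 17.5 to 49.8 CPM in GFP and 23.1 to 30.8 CPM in POU5F1B libraries, which overlap. ESM1, a secreted proteoglycan, had 48.3, 39.2 and 12.1 CPM against 4.91, 7.06 and 4.78 CPM. CLEC11A, a secreted growth factor of the lectin family, had 14.6, 17.4 and 4.93 CPM against 1.11, 1.76 and 2.82 CPM. IL16, a cytokine that attracts CD4+ cells, was even in its controls, as DKK1 was. IL16 had 11.9, 13.7 and 12.3 CPM against 2.69, 2.23 and 6.92 CPM.

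Among the transcription factors, MITF (ENSG00000187098; chromosome 3, 69788607 to 70017487), the regulator of melanocytes and of lysosomal genes, had 121, 116 and 19.3 CPM in GFP and 2.14, 2.97 and 3.501 CPM in POU5F1B libraries. Its means were 85.6 ± 57.5 and 2.87 ± 0.687 CPM (SD, n = 3), and its log2 fold change was -4.57 ± 1.11 (SE). MITF was second in the list, and nearly all of its spread lay in the controls. NR2F1, an orphan nuclear receptor, had 106, 107 and 56.0 CPM against 6.89, 5.39 and 30.0 CPM, and AFF3, a scaffold of transcription elongation complexes, had 95.8, 96.7 and 59.6 CPM against 4.51, 3.99 and 30.1 CPM. In both, each replicate 3 library lay between the others of the 2 groups, so that replicate 3 differed by 1.87 times in NR2F1 and 1.98 times in AFF3 where replicates 1 and 2 differed by at least 15.4 times. FOXA2, a factor of endoderm, was low but even in the controls, at 5.396, 5.16 and 5.33 CPM against 1.504, 1.49 and 3.16 CPM. PRDM1, a repressor best known from B cells and gut development, had 38.4, 30.6 and 35.5 CPM against 11.2, 10.1 and 19.1 CPM. KLF12, a repressor of the Krüppel-like family, had 27.7, 31.9 and 33.05 CPM against 12.7, 16.0 and 12.6 CPM, among the tightest groups of the list. The zinc finger genes ZNF136 and ZNF780A had POU5F1B replicate 3 as the lowest library. ZNF136 had 16.4, 27.1 and 10.7 CPM against 4.59, 4.74 and 1.96 CPM. ZNF780A had 15.2, 23.6 and 35.1 CPM against 6.97, 7.52 and 5.21 CPM. The remaining ZFP14 and ZBED2 had ratios of means of 1.91 and 2.41. Over the 10 regulators the ratio of means ran from 1.91 to 29.8, with a median of 3.17.

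The cytoskeletal members mostly differed less between the groups. Their ratios of means had a median of 2.25 and ran from 1.89 (VASH2, which removes the tyrosine of tubulin) to 6.87 (FRY, which binds microtubules and NDR kinases). FRY had 321, 311 and 71.8 CPM in GFP and 25.2, 31.4 and 45.9 CPM in POU5F1B libraries, and was the member in this group with the widest control spread. CALD1 (caldesmon, an actin-binding protein that restrains myosin; chromosome 7, 134429003 to 134655480) had 146, 186 and 132 CPM against 80.03, 87.6 and 50.04 CPM. CNN3, a calponin that stabilises actin filaments, had 4.81, 3.99 and 4.04 CPM against 2.53, 1.67 and 2.22 CPM. The ratios of the means of these actin-binding proteins were alike, at 2.13 for CALD1 and 1.998 for CNN3. The formins FMN1 and DAAM1, which nucleate actin, differed by 2.02 and 2.17 times. AGTPBP1, which trims glutamates from tubulin, differed by 2.33 times. DNAI3, a dynein intermediate chain, had 5.06, 5.55 and 3.07 CPM against 1.03, 0.743 and 1.45 CPM. CCDC170, a protein of the Golgi and microtubules, had 6.49, 7.51 and 6.46 CPM against 2.14, 2.14 and 3.33 CPM. MYOM1, a sarcomere protein, differed by 2.94 times.

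In signalling and membrane traffic, GNG11, a gamma subunit of G proteins, was the member with the highest GFP level per length. Its canonical transcript had a mean of 83.2 CPM per kb in GFP and 14.2 CPM per kb in POU5F1B cells. It was read at 343, 318 and 92.6 CPM in GFP and at 39.3, 43.1 and 46.5 CPM in POU5F1B libraries, so the POU5F1B libraries lay together and GFP replicate 3 stood below its group. PIP5K1B, a kinase that makes the membrane lipid PIP2, had 179, 178 and 82.0 CPM against 11.4, 16.8 and 39.7 CPM. TPD52L1, of the D52 family of vesicle traffic, had 215, 220 and 114 CPM against 30.1, 29.8 and 72.8 CPM. In both genes the replicate 3 libraries were drawn towards each other from either side. NBEA, a scaffold of membrane traffic, had 4.22, 5.63 and 5.41 CPM against 0.475, 1.02 and 1.45 CPM, a ratio of means of 5.18 at a low level. GALNT1, which starts O-glycosylation, was at the edge of the list with 36.5, 40.2 and 67.8 CPM against 20.4, 20.2 and 24.3 CPM. SESN3 (a sestrin, of the stress response), DNM3 (a dynamin), PELI2 (a ubiquitin ligase of innate signalling), RASGEF1B (an exchange factor of small GTPases), VEPH1 and ATP6V1C2 (a subunit of the vacuolar proton pump) had ratios of means between 2.13 and 4.77.

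Of the RNA-binding proteins, BTG4, an adaptor of the deadenylase that clears mRNA in oocytes, had 8.77, 10.9 and 10.7 CPM against 1.11, 1.95 and 5.04 CPM. RBPMS had 9.19, 7.90 and 7.76 CPM against 2.37, 2.79 and 4.87 CPM. The controls of both genes lay close together and POU5F1B replicate 3 was the highest of its group. MEX3B, a ubiquitin ligase that binds RNA, had 4.72, 5.55 and 3.23 CPM against 1.82, 1.86 and 1.11 CPM. Among the other or less well known genes, OGFRL1 had 21.4, 34.7 and 27.1 CPM against 3.09, 5.39 and 9.90 CPM. FAM171B, a membrane protein, had 114, 155 and 86.1 CPM against 31.4, 43.5 and 30.1 CPM. PCNX4, ENSG00000155130, RNFT2, ERICH1 and SMIM10 had ratios of means of 1.80, 2.15, 1.84, 2.53 and 2.88, and the pseudogene ATP6AP1L one of 8.88. ENSG00000155130 had no name in the annotation used, so it is kept with these without a known function.

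Among the long noncoding RNAs, MIR100HG (ENSG00000255248; chromosome 11, 121899033 to 122427429, minus strand) had the largest gap. It was read at 5.82, 7.66 and 3.15 CPM in GFP and at 0.158, 0.743 and 0.342 CPM in POU5F1B libraries. The POU5F1B values rest on 2, 8 and 4 counts, with replicate 1 below the floor of 3 counts, so the size of the gap is uncertain. MIR100HG is the host of 3 well known microRNA genes. Their main mature strands are shown, from RefSeq on GRCh38.p14, 5′ to 3′ with the seed (bases 2 to 8) in capitals. They are shown to identify the cluster, since only the host transcript was measured here and mature microRNAs are not captured by poly(A) libraries.
miR-100-5p (chr11:122152275-122152296, minus strand): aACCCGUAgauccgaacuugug
let-7a-5p (chr11:122146568-122146589, minus strand): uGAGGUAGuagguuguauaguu
miR-125b-5p (chr11:122099809-122099830, minus strand): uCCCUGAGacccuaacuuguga
The 3 seeds differ, so the strands fall into 3 families. LINC03033 was even within both groups, at 15.6, 22.5 and 15.9 CPM in GFP and 4.99, 5.39 and 5.38 CPM in POU5F1B libraries. ENSG00000250378 (chromosome 5, 135148356 to 135163235) had 19.8, 19.1 and 4.93 CPM against 0.475, 0.279 and 2.48 CPM, with 1.99 times between the nearest libraries and 13.6 times between means. Its POU5F1B values rest on 6, 3 and 29 counts, with replicate 2 at the floor, so the size of its gap is uncertain too. NR2F1-AS1, which overlaps NR2F1 on the other strand, had 10.1, 9.78 and 4.44 CPM against 0.317, 0.464 and 2.65 CPM. Those POU5F1B values rest on 4, 5 and 31 counts. In NR2F1-AS1, as in NR2F1, GFP replicate 3 was the lowest control and POU5F1B replicate 3 the highest of its group. LUCAT1, LINC02577 and LINC01963 had ratios of means of 2.03, 2.31 and 2.16. A gene on the opposite strand was annotated across 44 of the 61 members, and a gene on the same strand across 27. Such overlaps were not counted over the other genes, so these numbers do not set the members apart. The kit keeps strand, but the strand setting of the counting is not given in the sources used here. The share of reads from opposite-strand partners is therefore not known. Reads from same-strand partners cannot be told apart by strand, and their share is not known either.

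Replicate 3 stood apart in many members, on either side. GFP replicate 3 was the lowest of its group in 38 of the 61 genes (62.3%), against 49.7% of the 11221 genes at 3 CPM or more. POU5F1B replicate 3 was the highest of its group in 40 (65.6%), against 43.8%. GFP replicate 3 was under 0.5 times the mean of the other GFP libraries in 17 members (27.9%, against 7.99% of the 11221), and in 0 members was it over 2 times that mean (against 8.90%). POU5F1B replicate 3 was over 2 times the mean of its partners in 21 members (34.4%, against 2.20%). GFP replicate 3 under 0.5 times and POU5F1B replicate 3 over 2 times held together for 7 members (11.48%, against 0.36% of the 11221). These were AMOTL1, PIP5K1B, SEMA5A, PDZRN3, ATP6AP1L, ENSG00000250378 and NR2F1-AS1. The choice of genes bears on these shares, since a gene whose replicate 3 crossed the gap would not be listed. The members also stood at a lower level in POU5F1B libraries, where counts are few and ratios less certain. The median of the mean CPM was 5.25 in members against 35.9 in the 11221 genes, and its part in the shares was not tested. POU5F1B replicate 3 was also the library with the least POU5F1B, and whether that moved the members was not tested.

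**Figure D2:**
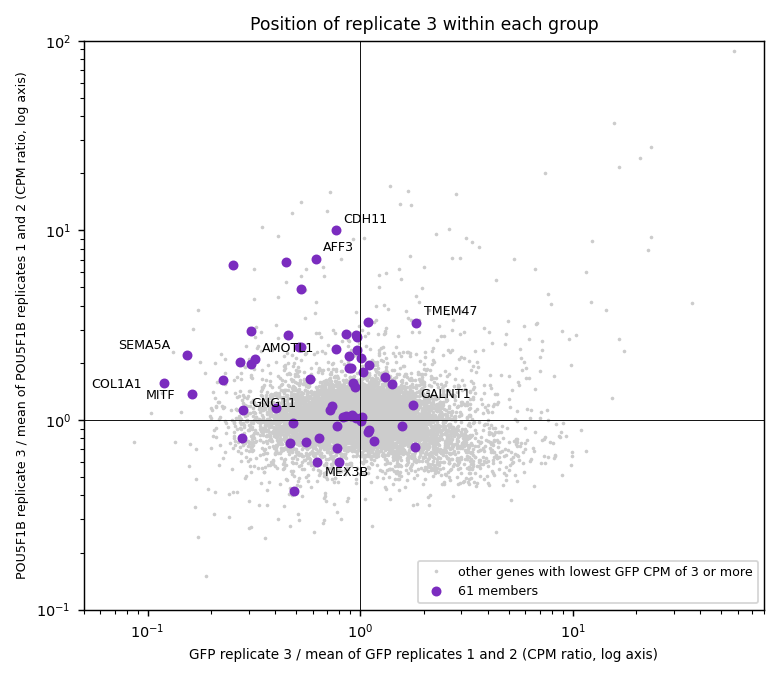
Ratio of GFP replicate 3 to the mean of GFP replicates 1 and 2 (horizontal) against the same ratio for POU5F1B (vertical), both on log axes, with the 61 genes in purple and the other genes at 3 CPM or more in every GFP library in grey. Among the 61, COL1A1, SEMA5A and MITF lie farthest to the left, and CDH11 and AFF3 lie highest.

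Within each replicate number the fall of the members differed in size. The median GFP to POU5F1B ratio over the 61 genes was 4.01 for replicate 1, 5.51 for replicate 2 and 2.07 for replicate 3, against 0.986, 1.01 and 0.918 over the 11221 genes. Replicate 3 gave the smallest ratio in 47 of the 61 members (77.05%), against 52.1% of the 11221 genes. All ratios are over 1.5 by the choice of genes. In 12 members the libraries of each group lay within 1.5 times of each other, namely LINC03033, LINC02577, LUCAT1, KLF12, ZFP14, AGTPBP1, FMN1, VASH2, ATP6V1C2, PCNX4, RNFT2 and ENSG00000155130. Their ratios of means ran from 1.80 (PCNX4) to 3.43 (LINC03033).

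**Figure D3:**
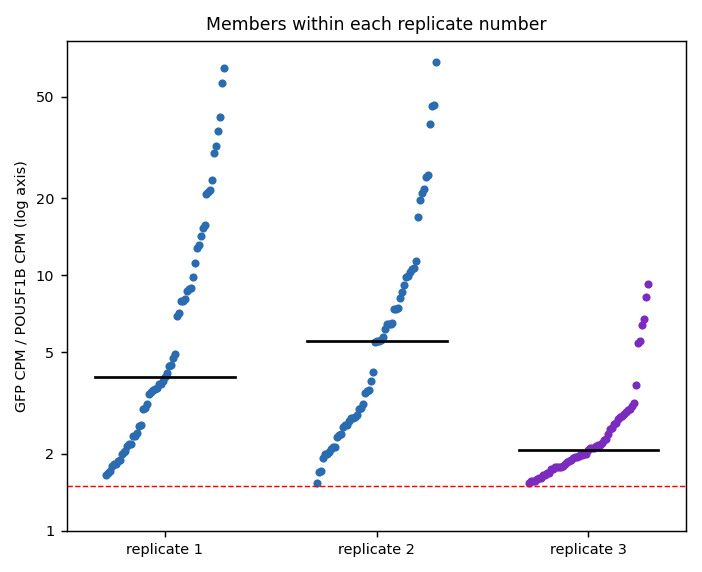
GFP over POU5F1B ratio in CPM (log axis) of the 61 genes within each replicate number, sorted, with the median as a bar and the 1.5 limit as a dashed line. The medians are 4.01, 5.51 and 2.07, and the points of replicate 3 reach 9.23 where those of replicates 1 and 2 reach 64.9 and 68.5.

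At the limit of 1.5, the nearest members and the nearest genes outside differed little. Just inside were GALNT1, CALD1 and ZBED2 with ratios of 1.5002, 1.505 and 1.54. Just outside were ZDHHC22, FRMD6 and BMP4 with 1.499, 1.48 and 1.48. BMP4, a ligand of the TGF-beta family, had 890, 832 and 480 CPM in GFP and 55.5, 48.4 and 324 CPM in POU5F1B libraries. FRMD6, an upstream protein of the Hippo pathway, had 155, 152 and 39.9 CPM against 26.3, 26.0 and 26.9 CPM. A further 42 genes kept the ratio with a lowest GFP level between 1 and 3 CPM, below the level asked. Of the 61 members, 23 had a lowest GFP level under 10 CPM.

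The fit across all genes used limma voom on 14286 genes, with an adjusted p under 0.05 and a fold above 2 as the threshold. With it 0% of the genes were called in this direction, and 0 of the 61 members passed. The same contrast chose the members, so nothing is read from this count. Before adjustment 1698 genes, all 61 members among them, had p under 0.05. The quasi-likelihood test of edgeR called 0 genes. DESeq2 called 232 in both directions and 149 in the lower one, of which 55 were members.

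Pathway lists gave a count of how far relatives of the members went the same way. The 15 lists were chosen for pathways near the members with earlier results known. Together they hold 8 of the 61 among 439 entries at 3 CPM or more in every GFP library. A gene in several lists is counted each time among the 439. Of the 11055 such genes placed on an arm, the genes treated apart not counted, 0.543% were members. Of 31 Hippo pathway and YAP target genes at 3 CPM or more in every GFP library, 2 met the condition in the lower direction (AMOTL1 and TGFB2) and 0 in the higher, and the median log2 fold change of the 32 tested was 0.10, against -0.02 over all 14286. Of the other angiomotins, AMOT had a log2 fold change of 1.24 ± 0.50 (SE) and AMOTL2 one of 0.18 ± 0.45, and neither is a member. Of 40 focal adhesion and actin genes, 2 did so (CALD1 and CNN3) and 0 in the higher direction, with a median of -0.02. Of 27 TGF-beta and BMP genes 1 did (TGFB2, median -0.02), of 29 Wnt and intestinal stem cell genes 1 (DKK1, median -0.08) and of 28 phosphoinositide enzymes 1 (PIP5K1B, median -0.22). Of 22 epithelial and intestinal transcription factors 2 did (FOXA2 and NR2F1) and 1 was higher (ELF3). None of the 15 lists holds CDH11, COL1A1 or any of the genes treated apart, such as ITGA1 and FAT1, so a count of 0 depends on the make-up of a list. The other 9 lists held 0 members, among them integrins and cell-cell adhesion (22 genes), the extracellular matrix (24 genes) and the hypoxia response (25 genes).

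Along the genome, 60 members could be placed on a chromosome arm and lay on 28 of the 42 arms with genes at 3 CPM or more. ENSG00000155130 had no position in the annotation used, so it is counted on no arm. Over all arms, 0.543% of 11055 such genes were members. Among arms with at least 100 such genes the share was highest on 6q, at 4 of 225 (1.78%, 95% Wilson interval 0.694 to 4.48), then on 8p, at 2 of 136 (1.47%, 0.404 to 5.203), and on 13q, at 3 of 209 (1.44%, 0.489 to 4.13). The first place of 6q is not firm, since 8p stood above it with TMM scaling (2.94% against 2.22%), without GFP replicate 1 (2.21% against 1.75%), without GFP replicate 3 (5.80% against 4.85%), without POU5F1B replicate 3 (11.03% against 4%) and with the GC and length correction (2.19% against 0.889%). The intervals for 8p and 13q hold the share over all arms. Those for 6q and for 5q (0.646 to 3.03) begin just above it, and 42 arms were compared. The intervals treat genes as separate draws, although the 5q members NR2F1 and NR2F1-AS1 overlap. No enrichment of an arm was tested.

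The 6q members were OGFRL1, CCDC170, PRDM1 and TPD52L1, those on 8p ERICH1 and RBPMS, and those on 13q NBEA, KLF12 and FRY. ERICH1 had 24.2, 26.6 and 22.5 CPM in GFP and 8.07, 6.87 and 14.0 CPM in POU5F1B libraries. The most members in number were on 5q, with 6 of 427 (1.41%), namely ENSG00000250378, ATP6AP1L, NR2F1, NR2F1-AS1, ESM1 and LUCAT1. On 11q were 4, AMOTL1, MIR100HG, SESN3 and BTG4, and on 14q 4, LINC03033, PELI2, DAAM1 and PCNX4. On 3p, MITF lay with PRICKLE2 and PDZRN3. GFP replicate 3 also differed from GFP replicates 1 and 2 along some arms in genes that are not members. The median log2 difference of these genes was -0.35 on 3p and -0.47 on 17q, the arm of COL1A1. It was 0.74 on 18q and 0.41 on 4q, against -0.05 over all such genes. The part of this in the members' values was not tested.

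**Figure D4:**
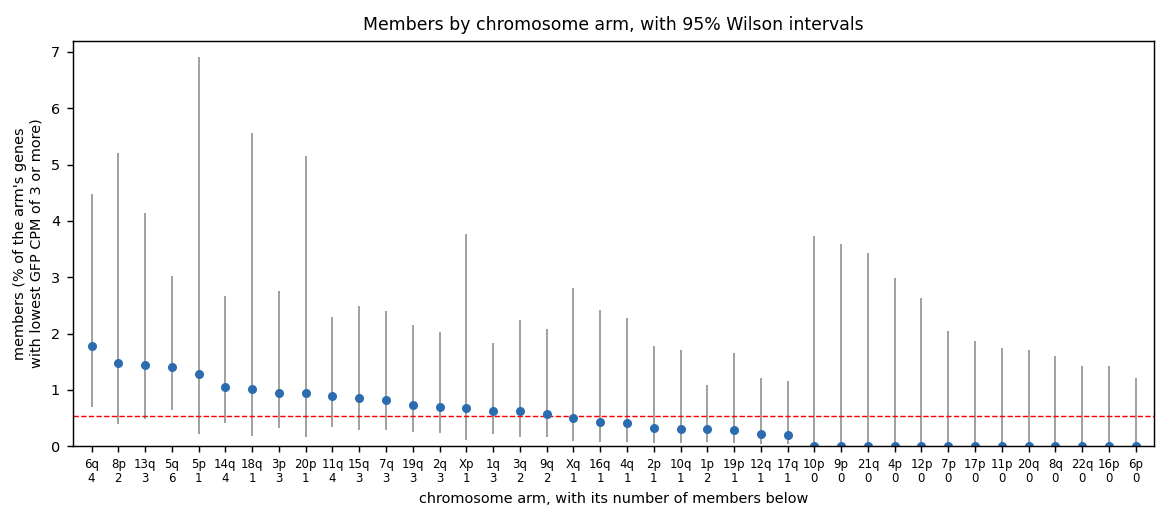
Share of members among genes at 3 CPM or more in every GFP library, by chromosome arm with at least 75 such genes, with 95% Wilson intervals, the number of members under each arm, and the share over all arms as a dashed line. The points run from 1.78% on 6q down to 0% on 13 arms. The intervals of 6q and 5q begin just above the line, but they treat linked genes as separate draws and are no test.

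Few members were neighbours. Within 1 Mb of each other lay 4 pairs, NR2F1 with NR2F1-AS1, AMOTL1 with SESN3 (289 kb apart), DAAM1 with PCNX4 (720.5 kb) and MEX3B with IL16 (728 kb). The non-members at 3 CPM or more within 1 Mb of a member, 504 genes, had log2 fold changes with a median of -0.18. Of these, 350 (69.4%) were below 0, against -0.03 and 54.5% over the 11221 genes. Genes that overlap a member are among the 504, and reads shared with a member were not set apart. The 11221 still hold the members and the genes treated apart. Whether whole arms moved was read from the genes that are not members. On 6q their median log2 difference, POU5F1B minus GFP, was 0.12, 0.15 and -0.21 within replicates 1, 2 and 3, and on 13q -0.06, 0.01 and -0.19, against 0.02, -0.01 and 0.12 over all arms. The other genes of 6q were thus not lower within every replicate number. On 5q, the arm with the most members, they were -0.13, -0.10 and -0.09, so the median lay below 0 within each replicate number. On 7q, the arm of GNG11, LINC02577 and CALD1, they were -0.28, -0.33 and 0.01. On 14q they were -0.17, -0.185 and 0.03, and on 19q -0.22, -0.35 and 0.04. On 8p they were 0.02, 0.001 and 0.13.

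In the annotation, members had longer and more AT-rich transcripts than the rest. The median length of the canonical transcript was 4116 bases in members (quartiles 2233 and 6116) against 3283 (1977 and 5159) in the genes at 3 CPM or more. Median GC content was 43.1% (quartiles 40.4 and 47.3) against 48.6% (42.0 and 56.7), with 46 of the 60 placed members below the median of the rest. No test was made, since the members were chosen on the counts. With the counts corrected for GC content and length, 57 genes met the condition, of which 42 were among the 61. AMOTL1, MITF, TGFB2, TMEM47, DKK1 and CDH11 stayed in, and MIR100HG, OGFRL1, TPD52L1, FRY, CNN3 and CALD1 were among the 19 that did not. ENSG00000155130 has no length or GC content and fell out for that reason.

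**Figure D5:**
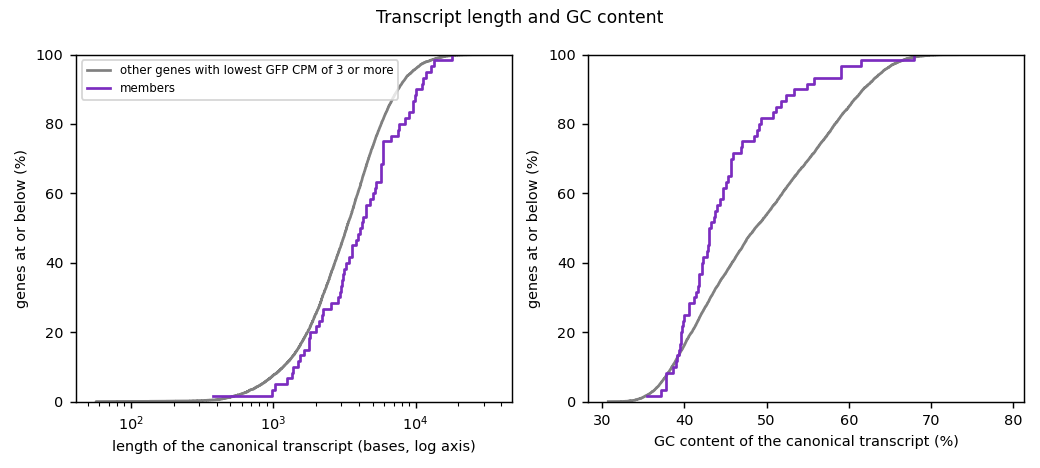
Cumulative share of genes by length (left, log axis) and GC content (right) of the canonical transcript, for the members in purple and the other genes at 3 CPM or more in every GFP library in grey. The purple curve is shifted to longer transcripts (median 4116 against 3283 bases) and to lower GC content (43.1% against 48.6%).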

How the data were processed

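RNA was measured in 6 libraries, 3 per group, prepared from poly(A) RNA with a stranded kit. The authors deposited whole-number read counts per gene, not normalized, and per the labels mapped reads to hg19 with HISAT2 and counted with featureCounts. The strand setting and annotation release are not given in the sources used here. Of the 63677 identifiers, 87.4% had a symbol in the name table. Groups and replicate numbers came from the sample titles.

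CPM used library totals of 10767947 to 12787637 counts. A floor of 3 counts was 0.235 to 0.279 CPM. Reads carry no molecular identifiers, so the floor covers counting error only. The Wilson intervals are on numbers of genes per arm and treat genes as separate draws. Fold changes came from voom with TMM and filterByExpr in limma 3.58.1 and edgeR 4.0.16 (R 4.3.3) over 14286 genes, with DESeq2 1.42.0 as an alternative. The voom fit was tested on simulated data. P-values measure only the spread between these libraries.

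The members and gene lists were chosen with earlier results of these data known. Functional groups were assigned after the members were known. Named genes were the 15 protein-coding and 3 other members with the largest gap, the 5 with the highest GFP level, up to 3 in each list with 2 or more members, 3 on each of the 3 arms with the highest share, and 3 on each side of the limit. Other members are described because the list is the subject, and AMOT, AMOTL2 and ELF3 were named after their values were seen. CDH1, an epithelial marker, was also named outside this rule. Of 527 gene list entries, 526 were found, older symbols included. Coordinates are 1-based GRCh37 from GENCODE, and sequences are RefSeq on GRCh38.p14. Transcript length and GC content are those of the canonical transcript. The correction for both used natural splines with 5 degrees of freedom per library. Alternatives were other scalings, ratios, levels, filters and tests, pairing, and leaving out each library.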

Additional observations from a re-analysis of the deposited data

How the results depend on the processing

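The number of members was 61 as reported, 81 with TMM, 75 with DESeq2 size factors and 60 with the upper quartile. It was 15 with a ratio of 2, 146 with one midway between 1 and 1.5, 103 with a lowest GFP level of 1 CPM and 38 with 10 CPM. Leaving out each library in turn gave 64 to 433, the highest without GFP replicate 3, and 263 without POU5F1B replicate 3 and 109 without GFP replicate 1. Replicates 1 and 2 only gave 815. The condition applied within replicate numbers, as a paired block, gave 134 genes. Deviations of libraries with the same number correlated at 0.242, 0.0883 and 0.165. The limit set was 0.1, which replicate 2 did not reach, so the main fit did not pair the libraries. Whether they are paired is not known, and ratios within replicate numbers are a description only. With the block, 0 members passed limma voom. The count of members past the threshold of limma voom was 0 as reported, 55 with DESeq2 and 54 with sample quality weights. It was 53 with replicates 1 and 2 only, and 0 to 54 with each library left out, 54 being without GFP replicate 3. It was 0 with edgeR, DESeq2 size factors, no filter and at least 10 counts in every sample. Calls over all genes rose in the same settings. DESeq2 called 232 genes (149 lower) and sample quality weights 1077 (629 lower). Replicates 1 and 2 only gave 1194 (736 lower), and leaving out GFP replicate 3 gave 595 (397 lower). The cause of these differences was not tested. Over the named genes and settings, 313 fold changes stayed on the same side of the threshold and 117 passed it, with no change of sign, which the choice of genes fixes for members. The order of arms turned: 8p and 6q held 11.03% and 4% without POU5F1B replicate 3, 5.80% and 4.85% without GFP replicate 3, and 2.19% and 0.889% with the GC and length correction, where 13q held 0.479%.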

Other observations

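Genes that met the condition once GFP replicate 3 was left out, beside the 61, numbered 372. The genes named here were picked after their values were seen and are given as values only. FRMD6, ITIH3, ATP10A and HSD17B2 were among them. ITIH3, a chain of the inter-alpha-trypsin inhibitors, had 48.9, 49.3 and 5.09 CPM in GFP replicates 1, 2 and 3 and 6.97, 7.62 and 7.94 CPM in POU5F1B replicates 1, 2 and 3. ATP10A, a lipid flippase of the membrane, had 20.7, 19.9 and 0.485 CPM in GFP and 3.09, 2.60 and 1.96 CPM in POU5F1B libraries. In both, GFP replicate 3 lay below every POU5F1B library. NGFR, a receptor of neurotrophins, had 630, 556 and 94.1 CPM against 147, 137 and 106 CPM.

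Leaving out POU5F1B replicate 3 added 202 genes. DCLK1, a microtubule-associated kinase that marks tuft cells of the gut, had 431, 488 and 252 CPM in GFP and 117, 134 and 180 CPM in POU5F1B libraries. PRSS23, a secreted protease, had 707, 613 and 227 CPM against 91.8, 91.6 and 267 CPM. DACT1, an antagonist of Wnt signalling, had 34.9, 16.5 and 10.6 CPM against 1.19, 1.02 and 10.3 CPM. No test was made on these values.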
